A study of Caenorhabditis elegans with 4 samples.

Results

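The 68 loci described here are genes of Caenorhabditis elegans that the authors' table lists under a sequence name alone, a name built from a cosmid or clone and a number such as C33G8.3, and whose value was lower after nitric oxide (NO). They were chosen by their values. A member has 1 name of that form, a control value of at least 5 FPKM (fragments scaled to transcript length and to library total), an NO value above 0, and a control value that is at least 2 times the NO value after 1 FPKM is added to each. Of 16562 loci in the table, 9709 carry a sequence name, and 5169 of these had at least 5 FPKM in control and a value above 0 after NO. The 68 members were 1.32% of those 5169, against 0.883% of all 9856 loci of any name with such values. Because the rule used both values, the size of the difference is a description of the choice and supports nothing by itself.

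RNA was taken from whole wild-type (WT) worms of stage L4, the final larval stage, after treatment with 1 mM MAHMA NONOate, an NO donor, and a recovery of 4 h at 20 °C. The groups were wild-type L4 worms with the agent NO (2 samples) and wild-type L4 worms labelled control (2 samples). The protocol text is shared by both groups and does not say how controls were handled, so the donor compound and handling cannot be told apart from NO. The table holds 1 value for each condition with both replicates combined, so no spread between samples can be shown, and the labels do not state if the replicates were independent cultures.

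The error used here is the standard error (SE) implied by the authors' deposited table, the size of the deposited log2 fold divided by the size of the deposited test statistic. The deposited statistic has the sign opposite to the fold at all 15621 loci above 0 in both conditions, so signs are dropped. In whole worms, fewer cells of a type and less RNA per cell cannot be told apart. Across the 5169 loci that the members were drawn from, the median log2 of the NO value over the control value, each with 1 FPKM added (the log2 ratio below), was -0.06. Among the members it was -1.43, as their choice requires.

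A sequence name says only that a gene had no name based on a function or phenotype, and such genes include protein-coding genes, pseudogenes and noncoding RNAs. Small nucleolar RNAs (snoRNAs) guide the chemical modification of ribosomal RNA, and many are cut out of the introns of longer genes. They are generally not polyadenylated, and kits that select polyadenylated RNA recover few of them. The labels name a TruSeq RNA kit without describing the selection step. The class called ncRNA in worm annotation gathers transcripts, many of them short, that belong to no named RNA class.

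Most of the 68 loci were short noncoding RNAs, and a minority were protein-coding genes. A reference annotation (assembly WBcel235, used for names, gene classes, lengths and which genes overlap) matched 67 of them. Of these, 39 were ncRNA, 9 snoRNA, 17 protein-coding and 2 pseudogenes. The remaining member, F12F6.10, was not matched. Its NO value, 3.92 FPKM, was the same as that of the protein-coding member K12H6.10, and both had an implied SE of 2.27. Their control values were 11.07 and 13.05 FPKM in the same order, and whether they share reads was not tested. The ncRNA and snoRNA members, 70.6% of the set, were each a single exon of 51 to 222 nt, and 44 of these 48 were at most 150 nt long. Among the 5169 loci they came from, the same classes made up 5.36% and protein-coding genes 88.8%. Lengths of the protein-coding members ran from 240 to 9215 nt, with a median of 884 nt, against a median of 2055 nt for the 4590 protein-coding loci with a sequence name and such values. The rule named no gene class or length, but FPKM is scaled to transcript length, so 5 FPKM takes fewer fragments at a short locus. The median implied SE was 4.84 for the 277 ncRNA and snoRNA loci among the 5169, and 0.46 for the 4590 protein-coding ones. The larger share of short noncoding loci is therefore not independent of the rule.

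**Figure D1:**
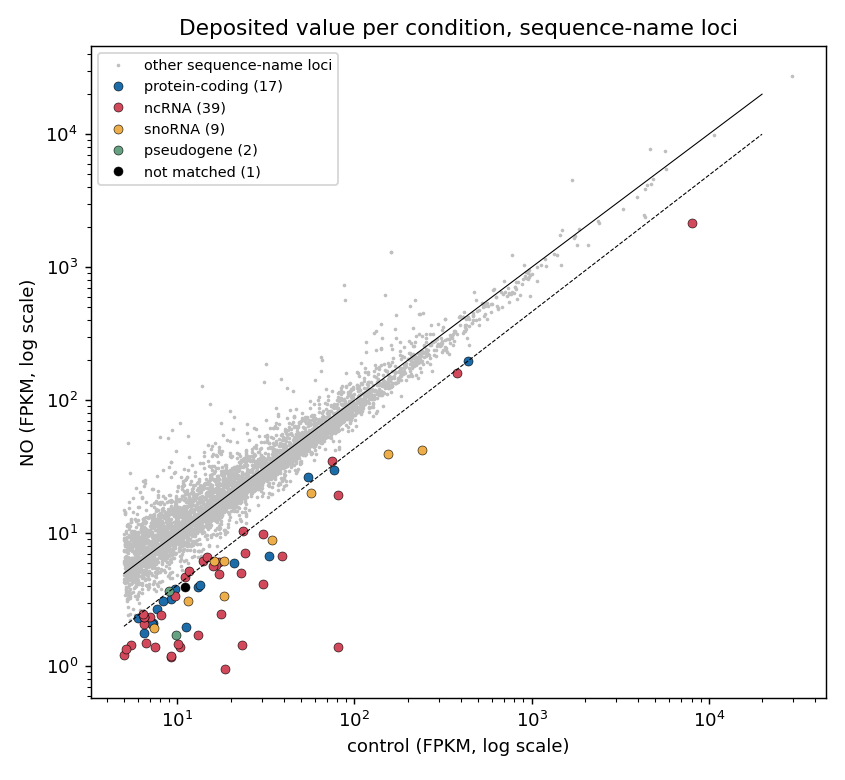
Deposited FPKM after NO (vertical) against control (horizontal), both on log scales, for sequence-name loci with at least 5 FPKM in control and an NO value above 0; grey points are the loci outside the set, coloured points the 68 members by gene class, the solid line marks equal values and the dashed line the 2-fold threshold after adding 1 FPKM. Members run from 5.03 to 8092 FPKM in control, and the 4 members farthest from the solid line are ncRNA.

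The deposited test called 1 of the 68 members. At an adjusted p of 0.05, lower values were called for 0.0121% of all loci, which is 2 loci, and 1 of these is the member C33G8.3. At an unadjusted p of 0.05 the authors' deposited table held 6 members, all of them protein-coding. At that threshold 0.338% of all loci and 0.29% of the 5169 sequence-name loci were lower, and 3.09% of all loci differed in either direction. Since the members were chosen from the same values, these shares are given side by side only. No ncRNA, snoRNA or pseudogene member passed even the unadjusted threshold, and the smallest deposited p among the 48 short noncoding members was 0.249. In 49 of the 68 members the deposited log2 fold was smaller than its own implied SE. The set is therefore one of loci with lower listed values, and by the deposited adjusted p C33G8.3 alone fell.

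The member that fell, C33G8.3, is now named drd-10, from a class of genes named for lower expression under dietary restriction. Its exons overlap those of anr-21, an antisense RNA on the opposite strand. The sources used here do not state that the counting used strand, so reads of a gene and of a gene opposite it cannot be told apart. The deposited values were 6.79 FPKM after NO and 33.02 FPKM in control, a log2 fold of -2.28 (implied SE 0.54, p = 2.2e-05 and adjusted p = 0.00911 in the table the authors deposited). Other genes of that class, on a list chosen with earlier results known, were not called and did not share its direction as a group. drd-1 was listed at 63.8 FPKM after NO and 71.2 FPKM in control, drd-5 at 21.6 FPKM after NO and 15.6 FPKM in control, and drd-50 at 2.62 FPKM after NO and 2.18 FPKM in control. Of the 4 measured genes on the list, drd-10 was the 1 called, and the list's median log2 ratio was 0.02.

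The next 3 members by deposited p, F45D11.14, F45D11.15 and F45D11.16, are neighbours and were the only members next to each other in the order of sequence-name loci. F45D11.15 and F45D11.16 were both listed at 2.08 FPKM after NO and 7.19 FPKM in control, and F45D11.14 was listed at 2.12 FPKM after NO and 7.32 FPKM in control. The annotation gives F45D11.15 and F45D11.16 predicted proteins of 501 residues and F45D11.14 one of 508 residues, each from 8 exons. The identical values and near-equal lengths mark them as possible near-identical copies, between which the authors' counting could have split reads. Each had a deposited log2 fold of -1.79 (implied SE 0.56), with unadjusted p = 0.00138 for F45D11.15 and F45D11.16 and 0.00134 for F45D11.14, and adjusted p of 0.189 and 0.188 in the authors' deposited table. A further locus of that clone with a sequence name, F45D11.1, was listed at 0.521 FPKM after NO and 0.848 FPKM in control and was no member.

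Y48E1B.8 and F41E6.15 were the remaining members under an unadjusted p of 0.05. Y48E1B.8, with a predicted protein of 383 residues, was listed at 1.79 FPKM after NO and 6.49 FPKM in control (deposited log2 fold -1.86, implied SE 0.90, unadjusted p = 0.0394 in the authors' deposited table). F41E6.15, with 80 predicted residues, was listed at 26.3 FPKM after NO and 54.3 FPKM in control (deposited log2 fold -1.05, implied SE 0.50, unadjusted p = 0.0357 in the authors' deposited table). Both had an adjusted p of 0.99994. An exon of Y48E1B.8 overlaps clec-145, named for C-type lectins, on the opposite strand, to which the same limit applies.

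The other 11 protein-coding members had unadjusted p-values from 0.0531 to 0.922. R09E12.9, the nearest to the threshold, was listed at 3.12 FPKM after NO and 8.28 FPKM in control (implied SE 0.73). F35F10.14 had the largest difference of the 11, at 1.98 FPKM after NO and 11.1 FPKM in control, but its deposited log2 fold of -2.49 came with an implied SE of 2.08. C09G1.5, now named nssp-89, was listed at 3.23 FPKM after NO and 9.25 FPKM in control, with an implied SE of 1.24. The largest difference of the 11 was therefore not the best measured one.

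Several of these genes encode very short predicted proteins, and 7 of the 17 protein-coding members have under 100 residues. That share was not counted among the protein-coding loci they were drawn from. Of those loci, 2.06% of the 194 up to 500 nt long met the rule, with a median implied SE of 0.59. Over 2000 nt it was 0.17% of 2352, with a median implied SE of 0.43. F19G12.8 (41 residues) was listed at 2.703 FPKM after NO and 7.69 FPKM in control, and one of its exons overlaps F19G12.4 on the same strand. K12H6.10 (43 residues) was listed at 3.92 FPKM after NO and 13.05 FPKM in control, and F26F2.11 (47 residues) at 5.97 FPKM after NO and 20.8 FPKM in control. W06G6.11 (73 residues) was listed at 4.09 FPKM after NO and 13.5 FPKM in control, and K12H4.6 (81 residues) at 2.32 FPKM after NO and 6.02 FPKM in control. None of these 5 passed the unadjusted threshold.

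Low precision among the protein-coding members was not limited to low values. K07C5.13 (85 residues) was the most abundant of them, at 197.5 FPKM after NO and 439 FPKM in control (deposited log2 fold -1.15, implied SE 1.25, unadjusted p = 0.355 in the authors' deposited table). Y38C1AA.1 was listed at 29.9 FPKM after NO and 76.7 FPKM in control, but its implied SE was 13.8. T09B4.5 was listed at 3.83 FPKM after NO and 9.73 FPKM in control, with an implied SE of 9.53. The median implied SE of the 4590 protein-coding loci they were drawn from was 0.46. The pseudogene members were H15N14.4, at 1.71 FPKM after NO and 9.80 FPKM in control (implied SE 2.15), which overlaps an exon of D2005.1 on the opposite strand, and T28A11.6, at 3.72 FPKM after NO and 8.93 FPKM in control (implied SE 0.73, unadjusted p = 0.0845 in the authors' deposited table).

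**Figure D2:**
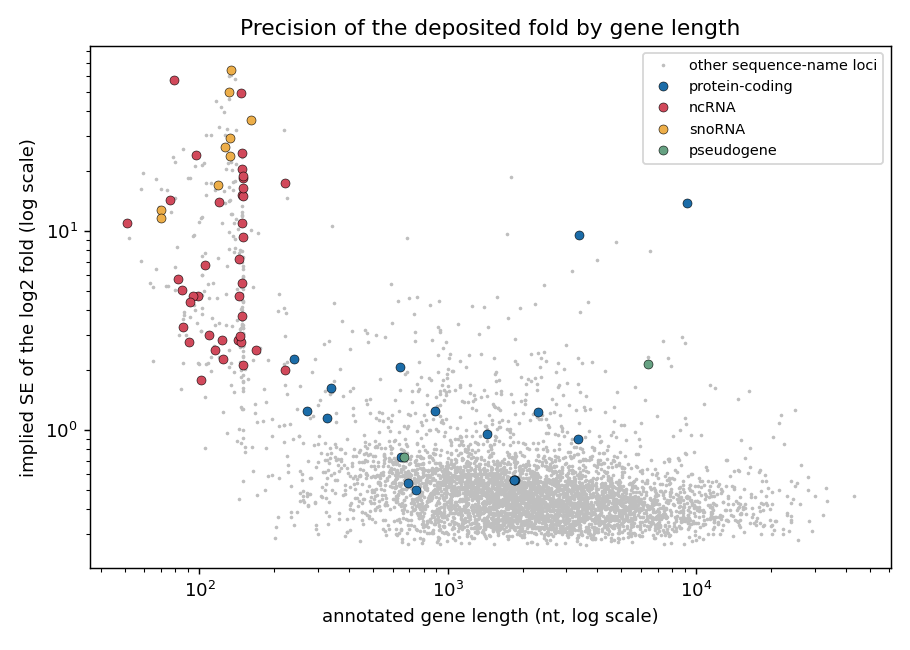
Implied SE of the deposited log2 fold (vertical, log scale) against annotated gene length in nt (horizontal, log scale) for sequence-name loci with at least 5 FPKM in control and an NO value above 0; coloured points are the matched members by class. The ncRNA and snoRNA members, all under 250 nt, have implied SEs from 1.79 to 64.7, whereas the protein-coding members have a median of 1.14.

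The 9 snoRNA members had lower listed values, and none of the differences exceeded its error. B0334.12 was listed at 42.6 FPKM after NO and 241 FPKM in control, and C16D9.11 at 39.6 FPKM after NO and 155.5 FPKM in control. Y37E3.20 was listed at 3.35 FPKM after NO and 18.3 FPKM in control, and R151.12 at 8.97 FPKM after NO and 34.2 FPKM in control. Their implied SEs ranged from 11.7 to 64.7 on the log2 scale over all 9, and every deposited unadjusted p lay between 0.844 and 0.981. The other 5 were listed at 1.93 to 20.01 FPKM after NO and 7.36 to 57.1 FPKM in control.

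Each of the 9 lies in an intron of a protein-coding gene, 8 of them on the strand of that gene. Positions were not counted for other snoRNA loci, so these counts are not shown to be particular to the members. 4 of these genes encode proteins of the large ribosomal subunit: R151.12 lies in rpl-6, F28C6.11 in rpl-26, F53G12.12 in rpl-7 and D1007.20 in rpl-24.1. The values of the genes around the snoRNAs were not part of the rule, and no difference of that size was listed for them. Because the rule admits only members at least 2-fold lower, this contrast was fixed in advance. With implied SEs of at least 11.7, the snoRNA ratios cannot be shown to differ from those of the genes around them. The locus of rpl-6 was listed at 4306 FPKM after NO and 4796 FPKM in control, and that of rpl-26 at 3563 FPKM after NO and 3816 FPKM in control. The locus of rpl-7 was listed at 3977 FPKM after NO and 4049 FPKM in control, and that of rpl-24.1 at 4097 FPKM after NO and 4450 FPKM in control. Each of these 4 loci joins the ribosomal protein gene with at least 1 other gene, and their values cannot be separated. Over the 8 same-strand genes the log2 ratio ran from -0.16 to 0.14, with a median of -0.11.

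The 39 ncRNA members had the most extreme listed differences and, with the snoRNAs, the least precise ones. Y102A11A.15, a 79-nt transcript, was listed at 1.40 FPKM after NO and 80.9 FPKM in control, the largest ratio of the 68, with a deposited log2 fold of -5.85, an implied SE of 57.3 and an unadjusted p of 0.919 in the authors' deposited table. Y15E3A.16 was listed at 0.962 FPKM after NO and 18.7 FPKM in control (implied SE 14.3), and Y75B7AL.5 at 1.44 FPKM after NO and 23.1 FPKM in control (implied SE 4.69). The ncRNA with the highest values, R04E5.15, is 51 nt long and was listed at 2160 FPKM after NO and 8092 FPKM in control (implied SE 10.9). In each of these 4 the deposited log2 fold was smaller than its implied SE.

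The other ncRNA members did not reach the threshold either. ZK809.10 had the smallest implied SE of the class, 1.79, at 19.4 FPKM after NO and 81.1 FPKM in control (unadjusted p = 0.249 in the authors' deposited table). C01B10.47 was listed at 161 FPKM after NO and 380 FPKM in control (implied SE 3.28), and C14A11.11 at 34.8 FPKM after NO and 74.6 FPKM in control (implied SE 2.95). T06A4.6 was listed at 4.17 FPKM after NO and 30.6 FPKM in control (implied SE 5.03), K05D4.11 at 6.75 FPKM after NO and 39.1 FPKM in control (implied SE 4.71), and Y55F3AR.4 at 2.47 FPKM after NO and 17.5 FPKM in control (implied SE 2.83). The deposited p exceeded 0.5 in 32 of the 39 ncRNA members and in 44 of all 68 members. A further 9 ncRNA members were among the 25 largest differences, C41G11.20, M03F8.8, F56D2.9, R03A10.9, T01C3.12, Y37D8A.27, Y8G1A.3, F48C1.14 and Y76A2B.7. They had 1.17 to 7.13 FPKM after NO and 7.49 to 24.03 FPKM in control, with implied SEs from 2.12 to 24.6.

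Of the 39 ncRNA members, 28 overlap a protein-coding gene, 5 of them in an intron on the same strand, 9 in an intron on the opposite strand and 14 opposite an exon. The other 11 overlap none. Overlaps were not counted for ncRNA loci outside the set, so no share is given beside these counts. Over the whole set of ncRNA and snoRNA members, 36 surrounding genes had a value. For 7 of the 36 it is that of a locus that joins several genes. Some of the 36 had low values, and adding 1 FPKM draws the log2 ratios of such genes toward 0. Among them were igcm-4, at 0.985 FPKM after NO and 1.74 FPKM in control, and math-46, at 0.515 and 0.504 FPKM. With 1 FPKM added, the log2 ratios of the 36 had a median of -0.05, as had those of the 29 single-gene loci, and 35 of 36 were above -0.5. Each of the 36 members had a lower ratio than its surrounding gene. For those 35 genes the rule fixed this direction in advance, because it admits only members at least 2-fold lower. The highest ratio of the 36 genes, 0.73, was that of Y37D8A.6, at 36.8 FPKM after NO and 21.7 FPKM in control. Its implied SE was 0.50, with an unadjusted p of 0.13 in the authors' deposited table. Y37D8A.27, which lies in its intron, was listed at 5.06 FPKM after NO and 22.98 FPKM in control (implied SE 2.26).

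Among the 36 surrounding genes the lowest ratio, -1.07, was that of amt-1, named for its similarity to ammonium transporters. It was listed at 4.37 FPKM after NO and 10.3 FPKM in control (in the authors' deposited table, implied SE 0.49, unadjusted p = 0.0114 and adjusted p = 0.751). The ncRNA member C05E11.15 lies opposite an exon of amt-1 and was listed at 10.46 FPKM after NO and 23.6 FPKM in control (implied SE 1.996). As the use of strand in counting is not stated, reads of the 2 cannot be told apart.

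**Figure D3:**
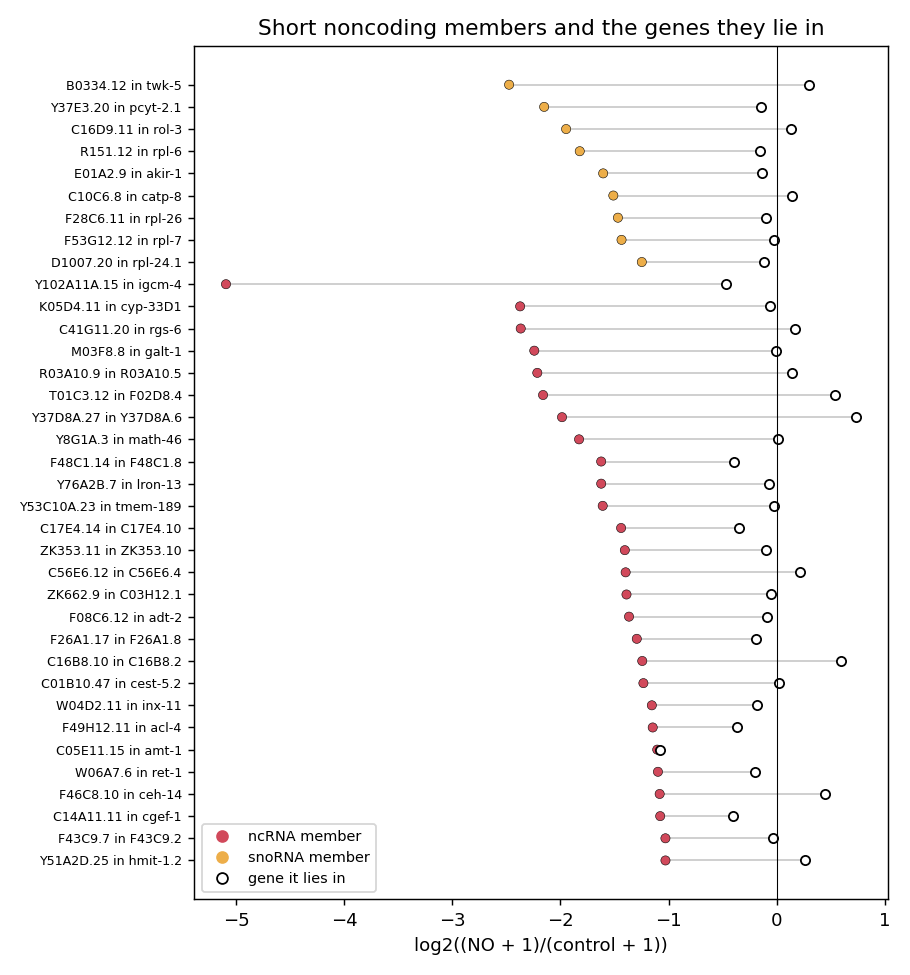
Log2 ratio, with 1 FPKM added to the NO and the control value (horizontal), for the 36 ncRNA and snoRNA members that lie within or opposite a protein-coding gene with a value (filled points) and for that gene (open points), 1 pair to a line. The open points have a median of -0.05 and only amt-1 is below -1. Adding 1 FPKM draws the ratios of genes with low values toward 0.

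A relative unit for the amount of sequence behind these values could be fitted from the table itself. Short noncoding loci of equal length often had exactly the same value, and further values at 2 and 3 times it. These shared values, called steps here, followed 1 curve of gene length, that of the mean number of start positions for fragments with normally distributed lengths. The fitted curve had a mean of 200 nt, an SD of 80.002 nt and a smallest fragment of 49 nt. The fit was started at a mean of 200 nt and an SD of 80 nt. These numbers describe the curve, and fragment sizes in the libraries were not measured here. Of 49 values shared by loci of 1 length in control, 36 lay on this curve, meaning within 1% of it. They deviated from it by at most 0.0127%, but the curve had been refitted to values within that limit. After NO, 13 of 20 shared values lay on the same curve scaled by 1.10. The scale was chosen to place the most shared values at 1, 2 or 3 times the curve. These counts and the deviation therefore rest in part on the fit itself. A step was worth 2.37 FPKM after NO and 2.16 FPKM in control for a locus of 150 nt, and 88.1 and 80.4 FPKM for a locus of 70 nt in the same order. For a transcript of 1000 nt it was 0.0286 FPKM after NO and 0.0261 FPKM in control. No locus over 250 nt was used in the fit. Steps of longer transcripts, which include most protein-coding members, are therefore extrapolated and were not checked.

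A step is the smallest regular unit in the table in these loci, and whether it stands for 1 fragment in 1 library or an average over 2 libraries cannot be told from combined values. Among short ncRNA and snoRNA loci with a sequence name and between 0.5 and 6.5 steps, 29.2% of 648 values after NO and 57.6% of 450 values in control lay within 0.02 of a whole number of steps. Fractions of a step also occurred, so it is no lower limit. For transcripts of several exons the number of steps rests on the reference length and is approximate.

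In steps, the noncoding and the protein-coding members separate almost completely. The 48 ncRNA and snoRNA members had a median of 0.614 steps after NO and 3.004 steps in control, and 42 of the 48 had under 10 steps in control. After NO, 28 of them were below 1 step and 7 at exactly 1 step within 0.02. The 17 protein-coding members, for most of which the curve is extrapolated, had a median of 90.8 steps after NO and 322 steps in control. Of them, 13 had at least 100 steps in control.

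Single loci give examples of FPKM values in steps. Examples at whole steps are not typical, as only 7 of the 48 ncRNA and snoRNA members had such a control value within 0.02. F49H12.11 and W04D2.11, both of 150 nt, were each listed at 2.37 FPKM after NO, which is 1.00 step, and at 6.453 and 6.495 FPKM in control, which are 2.99 and 3.01 steps. B0334.12 was at 0.483 steps after NO and 3.001 steps in control, although its control value was 241 FPKM. R04E5.15, with the highest FPKM of the set, was at 0.500 steps after NO and 2.05 steps in control. For drd-10 the same scale, extrapolated to its length, gave 90.8 steps after NO and 484 steps in control. The 8092 FPKM of the 51-nt locus in control thus stood for fewer steps than the 33.02 FPKM of drd-10.

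**Figure D4:**
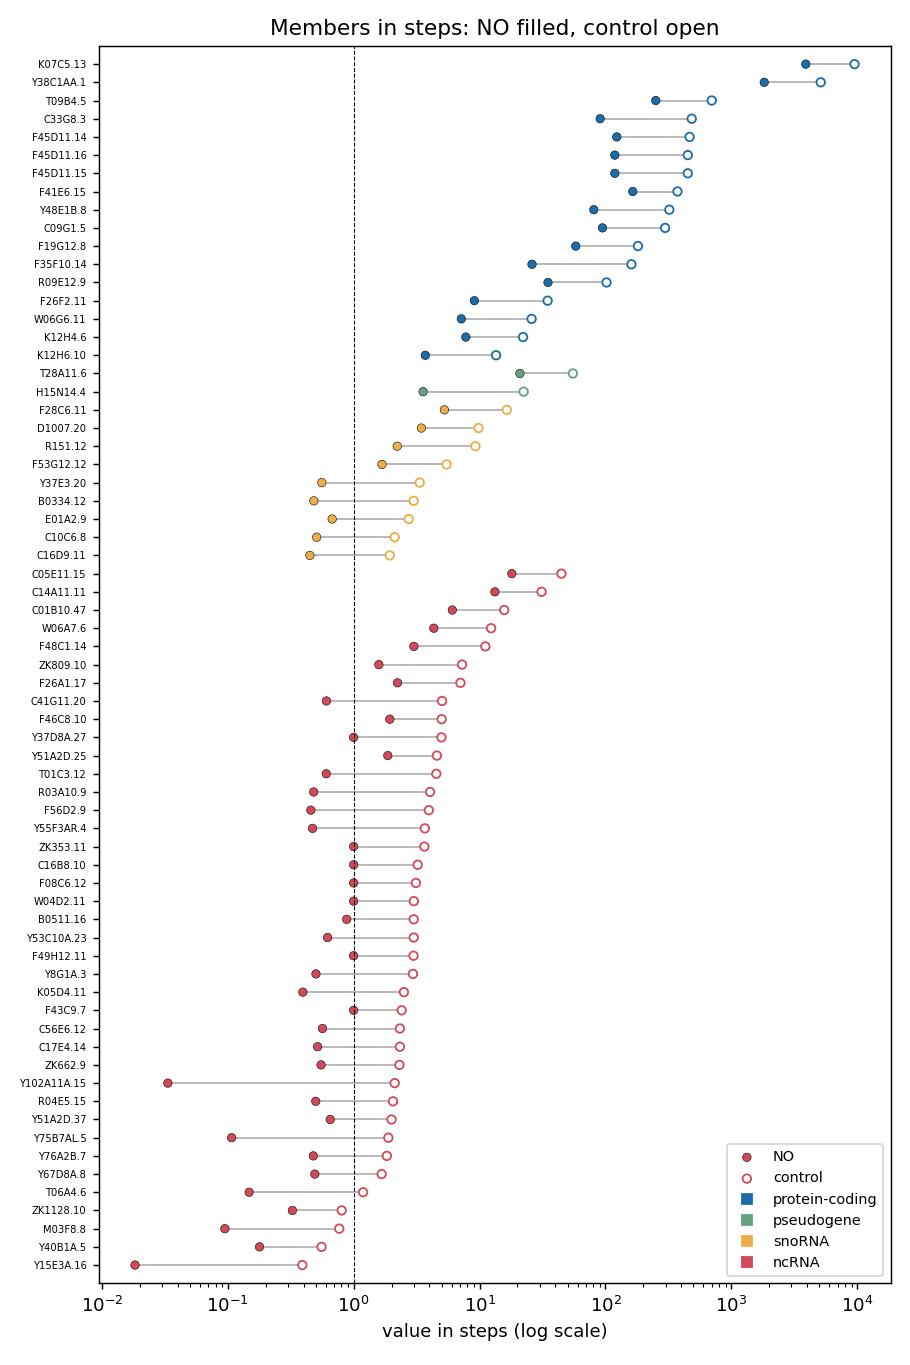
Values after NO (filled) and in control (open) of the 67 members with an annotated length, expressed in steps (horizontal, log scale, the dashed line marks 1 step), 1 member to a line, coloured by gene class. Protein-coding members lie between 13.5 and 9507 steps in control, and most ncRNA and snoRNA members between 0.391 and 10 steps. Steps of transcripts over 250 nt are extrapolated.

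Among ncRNA and snoRNA loci above 0 in both conditions, differences of this size were listed at similar shares in both directions. Of 232 ncRNA loci with a sequence name, at least 5 FPKM in control and an NO value above 0, 39 (16.8%) met the rule for lower values. The mirrored rule, with at least 5 FPKM after NO and a control value above 0, was met by 39 of 217 (18%). For snoRNAs the counts were 9 of 45 lower (20%) and 8 of 45 higher (17.8%). The median log2 ratio of the 277 ncRNA and snoRNA loci in the first count was -0.09, close to the -0.06 of all 5169 loci. With loci listed at 0 in 1 condition included, higher values had the larger share. For ncRNA, 94 of 287 loci were then lower (32.8%) and 147 of 325 higher (45.2%), and for snoRNAs 11 of 47 were lower (23.4%) and 21 of 58 higher (36.2%). None of these shares was tested.

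Among protein-coding loci more were higher than lower. Only 17 of 4590 (0.37%) with a sequence name were lower by the rule, and 195 of 4852 (4.02%) were higher. Protein-coding loci with another name gave 5 of 3366 lower (0.149%) and 123 of 3476 higher (3.54%). Loci with other names that met the same thresholds numbered 19, of which 8 were transfer RNA loci and 5 protein-coding: fipr-19, col-135, cyp-35A2, amt-1 and ins-34. The collagen gene col-135 was the only one of the 19 called by the deposited test, at 8.73 FPKM after NO and 27.1 FPKM in control (adjusted p = 0.00497 in the authors' deposited table).

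**Figure D5:**
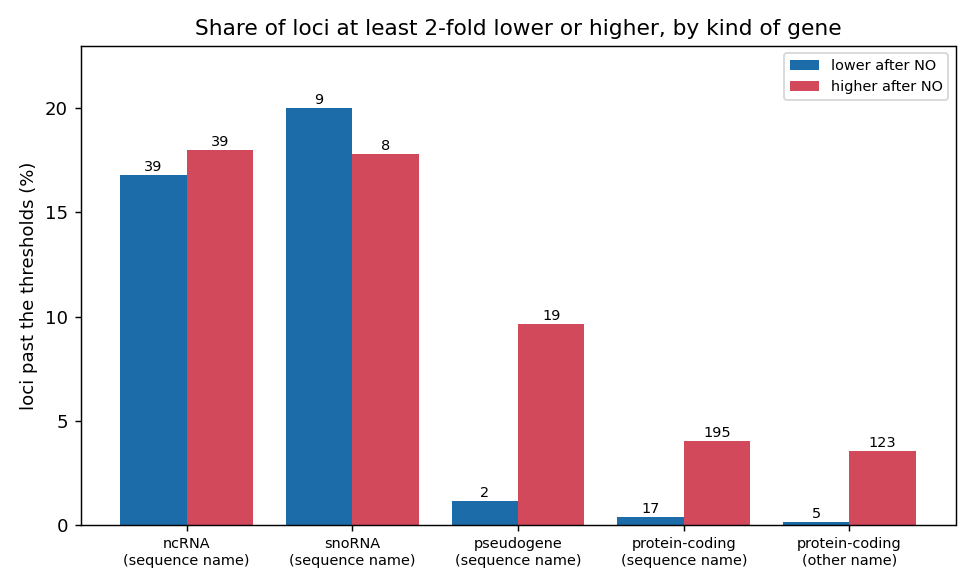
Percent of loci that were lower after NO by the rule (left bar of each pair) or higher by the mirrored rule (right bar), by gene class and kind of name, among loci above 0 in both conditions, with the number of loci above each bar. Lower and higher shares are 16.8% and 18% for ncRNA, but 0.37% and 4.02% for protein-coding genes with a sequence name.

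Near the thresholds, the members just inside the fold limit were F41E6.15, Y51A2D.25 and F43C9.7, with ratios of 2.03 to 2.04 after adding 1 FPKM, and the loci just outside were W04E12.2, C44C10.14 and Y37F4.14, at 1.97 to 1.98. Just inside the control limit were C17E4.14, ZK662.9 and C56E6.12, at 5.03 to 5.45 FPKM in control, and just outside were K11H3.12, B0238.15 and Y62F5A.11, at 4.80 to 4.93 FPKM. In all, 26 of the 68 members had under 10 FPKM in control.

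Markers of the main tissues were present in both conditions, and none was lower by the rule. Of 8 markers each for intestine, epidermis, germline, sperm, body wall muscle, neurons and pharynx, 6 to 8 were measured, 0 were called and 0 were listed at 0 in either condition. Their summed values after NO and in control were 1272 and 1407 FPKM for intestine, 2057 and 2489 FPKM for epidermis, 1484 and 1785 FPKM for germline and 1009 and 879 FPKM for sperm. For body wall muscle they were 2100 and 2075 FPKM, for neurons 333 and 351 FPKM and for pharynx 212 and 209 FPKM. The epidermal markers rol-6, sqt-3 and dpy-13 were higher by the mirrored rule without being called. The epidermal sum rests on the collagen gene col-19, and without it the other 7 markers summed to 248 FPKM after NO and 195 FPKM in control. The median log2 ratio of the epidermal list was 0.48. The part of these tissues in the values of the 68 loci was not tested.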

How the data were processed

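The authors deposited 1 table of their comparison. Per the submitters' processing notes it was made with TopHat2 2.0.2, Cufflinks 2.0.5 and R 2.15.2; for settings, genome build and annotation the sources used here give nothing. The authors' values per condition were read as FPKM from the column layout. The deposited fold is the ratio of NO to control, the deposited log2 fold and test statistic are scores with a placeholder where a value is 0, and the deposited p-value equalled the two-sided normal tail of the statistic within 0.001 in all 15621 loci above 0 in both conditions. Replicates were combined before deposit, so no count model, limma fit or pairing check could be run, and the depth of each library is unknown.

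Members were found by name and values with Python 3.11.15 and pandas 2.3.3. Gene classes, lengths and overlaps came from RefSeq and Ensembl release 115 annotation of WBcel235, which may differ from the authors'; 9487 of 9709 sequence names matched, and its coordinates were used only to find overlaps and gene order. Steps were fitted with scipy 1.17.1 to values shared by at least 2 short noncoding loci, with numpy 2.4.6, figures were drawn with matplotlib 3.10.9, and the fit was tested on simulated data. Named members were the 25 largest log2 ratios, all with unadjusted p under 0.05, the 5 highest control values, those at the thresholds and neighbours; others were chosen after their values were seen. The rule's protein-family clause, and planned protein and promoter features, were not analysed here. The members and lists were chosen with earlier results of these data known.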

Additional observations from a re-analysis of the deposited data

How the results depend on the processing

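The set is defined by its thresholds, and its size moved with them. The rule gave 68 members, or 1.32% of the loci it could apply to. A ratio of at least 1.5 gave 209 members (4.04%), and a ratio of at least 3 gave 27 (0.522%). A control value of at least 10 FPKM left 42 members. With 2 alternatives chosen after seeing the data, 17 members remained when only protein-coding loci were kept and 25 when at least 10 steps in control were asked for. Counts stayed within 1.5 times the main one with a control value of at least 2 FPKM (94), 0.1 FPKM added (81) or nothing added (83), ratios centred on their median (65), names without a current symbol (66), an isoform letter allowed (68) and identical loci counted once (67). The median log2 ratio of the members ran from -1.77 to -1.40 over its alternatives. The single member called stayed at 1 with adjusted p thresholds of 0.01 and 0.1 and after a new adjustment over loci averaging 1 FPKM or more. At unadjusted p, 4 and 8 members passed thresholds of 0.01 and 0.1. The 6 members at 0.05 became 4 with the F45D11 loci counted once, an alternative added after seeing the data. No paired analysis was possible because the table holds 1 combined value per condition, and for the same reason leaving out a replicate was not run. The depth of each library is unknown, and 42 of the 48 ncRNA and snoRNA members had under 10 steps in control.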

Other observations

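Loci listed at 0 after NO were left out by the rule and were mostly short noncoding loci. Of sequence-name loci with at least 5 FPKM in control, 61 were listed at 0 after NO, 55 of them ncRNA. In 54 of the 61 the control value was under 3 steps, and in 27 it was 1 step within 0.02. F13G11.144 and Y39E4B.17, both of 57 nt, were each listed at 0 after NO and at 501 FPKM in control, a value of 1.00 step. The reverse was more frequent, with 126 sequence-name loci of at least 5 FPKM after NO listed at 0 in control, 108 of them ncRNA. Of these, 125 had an annotated length and 113 were under 3 steps after NO. The deposited unadjusted p was under 0.05 for 0 of the 61 and for 1 of the 126. A different kind of entry was the protein-coding locus Y17D7B.10, listed at 0 after NO and at 282 FPKM in control. On the extrapolated curve this is 1950 steps, and the locus had an unadjusted p of 0.278 in the authors' deposited table.

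Transfer RNA loci, whose names the rule leaves out, also had lower listed values. Of 16 with at least 5 FPKM in control and an NO value above 0, 8 were lower by the same thresholds, and of 8 with at least 5 FPKM after NO and a control value above 0, 0 were higher by the mirrored rule. A further 15 were listed at 0 after NO and 13 at 0 in control. 6 of the 8 lower loci had the same pair of values, 0.662 FPKM after NO and 12.2 FPKM in control, and cannot be told apart. Their implied SE was 20.3 and their unadjusted p 0.836 in the authors' deposited table.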
